A study of Papio anubis with 25 samples.

Results

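Among the 10 parotid and submandibular gland libraries of 5 olive baboons (Papio anubis), 7 held at least 2000 TPM of BPIFA2 (length-corrected transcript share of a library, scaled to a fixed sum) and 3 held less, out of 25 libraries in the series. The first set is called secretory-rich and the second secretory-poor. BPIFA2 encodes a lipid-binding protein that serous acinar cells release into saliva, and the sets were chosen by its measured level, so every difference between them is given as a description, without a test.

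The secretory-poor libraries were Parotid baboon 2, Parotid baboon 5 and Submandibular baboon 2. The secretory-rich libraries were the parotid of baboons 1, 3 and 4 and the submandibular of baboons 1, 3, 4 and 5. Baboon 5 was the only male, and no treatment or genotype is named for any animal. Each library came from 3 sections of 30 µm of the flash-frozen left gland, so a library reports what lay in those sections. The remaining 15 libraries were sublingual gland, pancreas and liver of the same animals.

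Saliva is made by clusters of acinar cells that store secretory proteins in granules and release them, with water and salts, into a branching system of ducts. The parotid is a serous gland, and the submandibular is a mixed gland. Fat cells, connective tissue, blood vessels, nerves and scattered plasma cells surround the acini. The parotid is also known for lymph nodes embedded within or beside it.

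Deposited BPIFA2 was 19380 TPM in Parotid baboon 1, 5051 TPM in Parotid baboon 3 and 15810 TPM in Parotid baboon 4. In the submandibular libraries of baboons 1, 3, 4 and 5 it was 46590, 35900, 36520 and 28940 TPM. In the secretory-poor libraries it was 507 TPM in Parotid baboon 2, 1044 TPM in Submandibular baboon 2 and 1108 TPM in Parotid baboon 5. The library just inside the limit was thus Parotid baboon 3, and the library just outside it was Parotid baboon 5.

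BPIFA2 was also listed at 562 to 1414 TPM in the 5 liver libraries, 582 to 1230 TPM in the pancreas and 643 to 1598 TPM in the sublingual gland. Parotid baboon 2 lay below the lowest liver library, and the other two secretory-poor libraries lay inside the liver range. The limit of 2000 TPM on this gene lay above every library of these 3 tissues, so its low level in the secretory-poor libraries only restates how they were chosen.

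The secretory-rich libraries were dominated by few genes. The 6 most abundant loci, PRH2 and 5 unnamed loci, were picked after their values were seen. PRH2 encodes an acidic proline-rich salivary protein. LOC103881672 lies near TAS2R42 in the RefSeq gene order, LOC103884417 beside HTN1 and CSN2, LOC101011282 beside OPRPN and MUC7, and LOC101021528 beside CST9. The fifth unnamed locus is LOC101023064. Together the 6 loci took 79.7%, 55.8% and 85.0% of TPM in the parotid of baboons 1, 3 and 4. They took 75.1%, 67.5%, 77.6% and 49.2% in the submandibular of baboons 1, 3, 4 and 5.

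In the secretory-poor libraries the same loci took 1.15% in Parotid baboon 2, 2.74% in Parotid baboon 5 and 3.42% in Submandibular baboon 2. Liver libraries held 1.53% to 3.54%, pancreas 1.34% to 3.11% and sublingual gland 2.21% to 5.03%. These loci were thus listed in every tissue at a few percent, and the secretory-poor sections held them at that level or lower. Reads of near-identical salivary genes may have been divided between copies, so the values of single loci are uncertain.

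**Figure D1:**
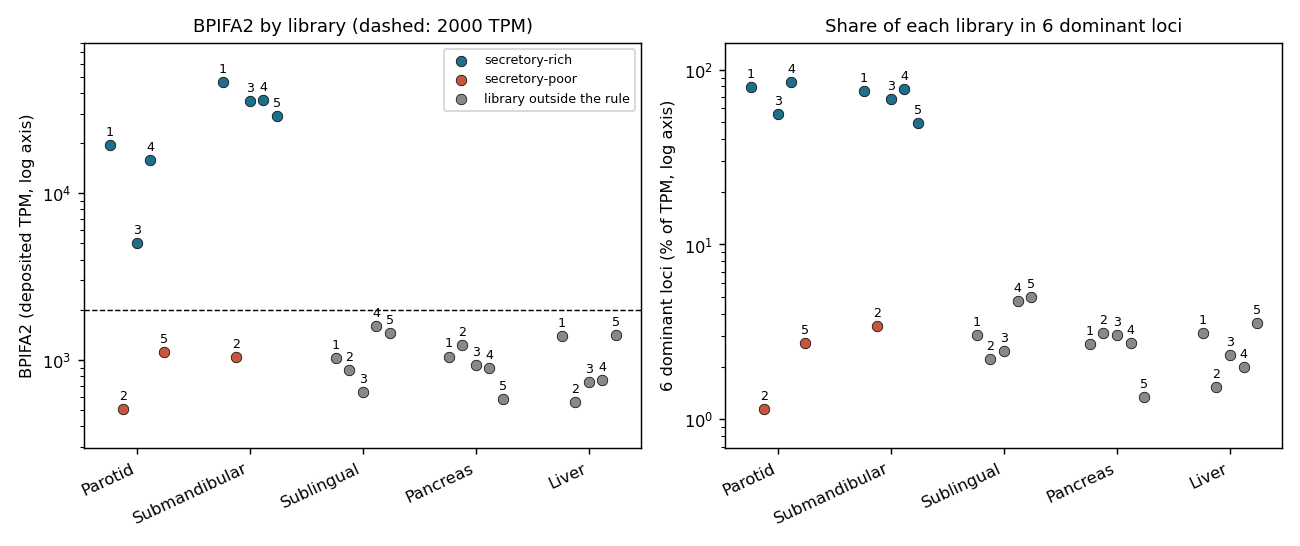
Deposited BPIFA2 in TPM (left, log axis, with the 2000 TPM limit dashed) and the percent of each library's TPM in 6 dominant loci (right, log axis) for each library by tissue, 1 point a library. The 3 secretory-poor points lie at 507 to 1108 TPM, among or below the liver and pancreas points.

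TPM sums to the same total in every library, so a library given over to a few transcripts lists all its other genes at low values. The 10 highest genes took 57.9% to 87.7% of TPM in the secretory-rich libraries. They took 18.0%, 24.4% and 16.2% in Parotid baboon 2, Parotid baboon 5 and Submandibular baboon 2. Genes at 1 TPM or more numbered 7639 to 11992 in the secretory-rich and 13383 to 13824 in the secretory-poor libraries.

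Values were therefore divided by a median-of-ratios factor, computed over 6843 genes at 1 TPM or more in all 10 libraries, and are called scaled TPM below. Factors were 0.423 to 1.23 in the secretory-rich and 2.54 to 2.78 in the secretory-poor libraries. Differences are on the log2(scaled TPM + 1) scale, which understates differences of low genes. Over the 11912 genes with a mean of at least 1 scaled TPM, the median difference between the sets was 0.09. Without scaling it was 1.70, so that most genes then seemed higher in the secretory-poor libraries.

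With scaling, 754 of 11912 genes (6.33%) were lower in all 3 secretory-poor libraries than in all 7 secretory-rich libraries, with a mean difference of at least 1 log2 unit. In the other direction, 445 genes (3.74%) were higher in all 3. Leaving out Submandibular baboon 5 raised the second count to 935, leaving out Parotid baboon 2 to 748 and leaving out Parotid baboon 5 to 1080. On the deposited values the counts were 235 lower and 7568 higher.

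**Figure D2:**
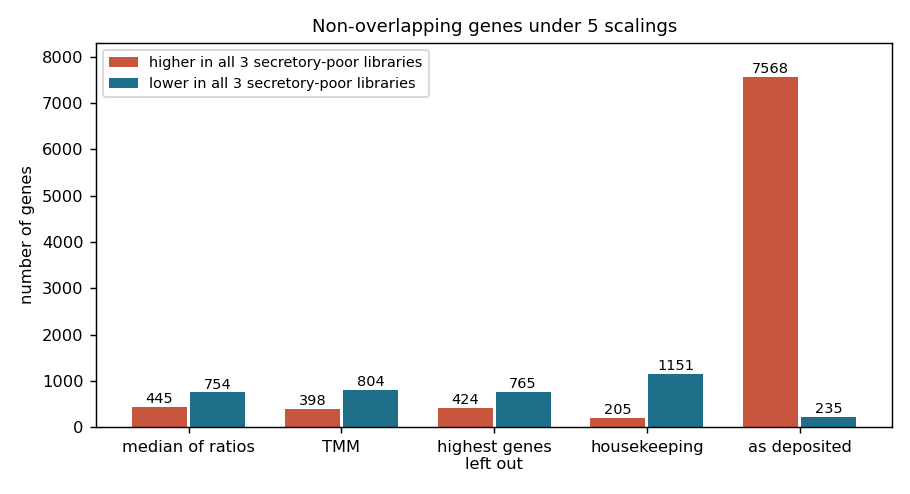
Number of genes (bars from 0) lower or higher in all 3 secretory-poor libraries, without overlap and by at least 1 log2 unit, under 5 scalings of the same values. The deposited values give 7568 higher and 235 lower genes, and median-of-ratios scaling gives 445 higher and 754 lower.

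Under median-of-ratios scaling, secretory proteins of serous cells had the lowest median of the 27 gene lists over the 3 secretory-poor libraries, -3.93. Of 44 listed genes, 29 were in the table and 26 passed the filter. Of these 26, 15 were lower in all 3 secretory-poor libraries, beside 6.33% of all genes, and none was higher in all 3. Their median difference was -4.37 in Parotid baboon 2, -3.19 in Parotid baboon 5 and -3.64 in Submandibular baboon 2, beside 0.02, 0.09 and 0.05 over all genes.

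KLK1, the tissue kallikrein of ducts, ranged from 435 to 4479 scaled TPM in the secretory-rich libraries, with a median of 1818. It was 13.2 in Parotid baboon 2, 15.9 in Parotid baboon 5 and 24.1 in Submandibular baboon 2. The sets did not overlap.

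LPO, lactoperoxidase, an antibacterial salivary enzyme, ranged from 29.6 to 240 scaled TPM with a median of 175 in the secretory-rich libraries. It was 1.36, 2.32 and 2.63 in the parotid of baboon 2, the parotid of baboon 5 and the submandibular of baboon 2. CA6, the secreted carbonic anhydrase, ranged from 909 to 11640 with a median of 4686, against 52.1, 148 and 85.0 in the same order. For both genes the lowest secretory-rich library stood well above every secretory-poor library.

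Other secreted proteins overlapped. ZG16B, a lectin-like secretory protein, was 545 to 8916 scaled TPM in the secretory-rich libraries and 335, 806 and 201 in Parotid baboon 2, Parotid baboon 5 and Submandibular baboon 2. MUC7, the small salivary mucin, was 131 to 16500 with a median of 2267, against 72.7, 134 and 104. LYZ, lysozyme, which macrophages also make, was 81.4 to 1346, against 104, 127 and 45.1. Parotid baboon 5 lay inside the secretory-rich range for all 3 of these genes, the other secretory-poor libraries below it except Parotid baboon 2 for LYZ.

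SLPI, a secreted protease inhibitor, was the 1 gene of the 26 that lay above every secretory-rich library in a secretory-poor library. It was 3.85 to 27.1 scaled TPM in the secretory-rich libraries and 26.6, 18.0 and 41.0 in Parotid baboon 2, Parotid baboon 5 and Submandibular baboon 2. Without the filter on low values, 1 of the 29 secretory genes lay above in Parotid baboon 5 and 2 in Submandibular baboon 2.

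The unnamed locus LOC116268615, on the secretory list, separated the glands as well as the sets. It was 8319, 2715 and 14840 scaled TPM in the secretory-rich parotid libraries of baboons 1, 3 and 4. In the secretory-rich submandibular libraries it ranged from 147 to 1376, and in the secretory-poor libraries it was 34.9, 57.2 and 123. As deposited, the secretory-poor libraries held 97.2 to 336 TPM and the liver 147 to 186 TPM.

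Set against liver as deposited, where dominance by few genes is less, 67.0%, 67.6% and 66.3% of all genes were above the highest liver library in Parotid baboon 2, Parotid baboon 5 and Submandibular baboon 2. Of the 26 secretory genes, 2, 4 and 9 were. In the secretory-rich libraries 4.46% of all genes were above the highest liver library in all 7, and 9 of the 26 secretory genes were. The gland product was thus hardly above the liver level in Parotid baboon 2, and most often so in Submandibular baboon 2.

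The genes with the widest gap below the secretory-rich libraries joined secretory and epithelial products. PRR27, a proline-rich protein gene, had a mean of 601 scaled TPM in the secretory-rich and 3.37 in the secretory-poor libraries. FXYD3, an epithelial regulator of the sodium pump, had means of 203 and 3.05. WFDC2, a secreted protein of ducts and glands, had means of 421 and 9.08, and AZGP1, a secreted glycoprotein, had 487 and 13.0. The other named genes of this rank were KLK1, PRH2, AQP5, CRACR2B, CD164L2 and PDZK1IP1.

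Genes of fluid secretion were mixed. AQP5, the water channel of the apical acinar membrane, ranged from 45.2 to 198 scaled TPM in the secretory-rich libraries, with a median of 114. It was 0.807 in Parotid baboon 2, 1.43 in Parotid baboon 5 and 1.98 in Submandibular baboon 2. As deposited, AQP5 was 2.25, 3.64 and 5.40 TPM there, against 1.98 to 3.90 TPM in liver. Both parotid libraries lay inside the liver range and the submandibular library above it.

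Of the 20 fluid-secretion and acinar receptor genes that passed the filter, 9 were lower in all 3 secretory-poor libraries, beside 6.33% of all genes, and 1, the calcium release channel gene ITPR3, was higher in all 3. The median difference was -1.47, -1.50 and -1.45 in Parotid baboon 2, Parotid baboon 5 and Submandibular baboon 2. ANO1, the calcium-gated chloride channel of acini, was 5.67 to 53.0 scaled TPM in the secretory-rich libraries, against 0.998, 0.635 and 1.47. CA2, a cytosolic carbonic anhydrase, was 5.58 to 83.3, against 0.521, 0.725 and 0.711. SLC12A2, the basolateral chloride uptake transporter, was low in every library, at 0.554 to 2.71 in the secretory-rich and 0.489, 0.750 and 1.09 in the secretory-poor libraries.

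Genes of granule release differed less. Of 20 regulated exocytosis genes that passed the filter, 6 were lower in all 3, beside 6.33% of all genes, and none was higher in all 3, beside 3.74%. Their median difference was -0.51 over the 3 libraries, and it turned to 0.92 on the deposited values. RAB26, a small GTPase of secretory granules, was 24.3 to 76.3 scaled TPM in the secretory-rich libraries and 6.25, 2.71 and 2.02 in Parotid baboon 2, Parotid baboon 5 and Submandibular baboon 2. VAMP8, a granule membrane fusion protein also used by blood cells, was 94.4 to 301 and then 38.1, 130 and 41.8. Parotid baboon 5 alone lay inside the secretory-rich range for VAMP8.

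Genes for protein entry into the endoplasmic reticulum and folding there were nearly level. Of 42, 3 were lower in all 3 libraries, near the 6.33% of all genes, and none was higher in all 3, with median differences of -0.43, 0.19 and -0.04. XBP1, a transcription factor of secretory cells including plasma cells, was 35.7 to 119 scaled TPM in the secretory-rich libraries. It was 26.5 in Parotid baboon 2, 108 in Parotid baboon 5 and 47.6 in Submandibular baboon 2.

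The epithelium itself was low. Of 23 duct and epithelial adhesion genes that passed the filter, 21 were lower in all 3 secretory-poor libraries, beside 6.33% of all genes, with a median difference of -3.35. KRT8, a keratin of simple epithelium, ranged from 26.6 to 127 scaled TPM with a median of 88.2 in the secretory-rich libraries. It was 2.04, 2.35 and 3.22 in Parotid baboon 2, Parotid baboon 5 and Submandibular baboon 2. EPCAM, an epithelial adhesion molecule, was 9.31 to 38.9, against 0.647, 1.08 and 2.04. In bulk tissue, fewer cells of a type and less RNA per cell cannot be told apart.

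KRT8 marks epithelium of liver and pancreas too. As deposited it was 5.68, 5.98 and 8.77 TPM in the secretory-poor libraries, against 63.8 to 87.0 TPM in liver and 47.6 to 81.0 TPM in pancreas. KRT8 was therefore lower in these sections than in any liver or pancreas library. The sublingual gland ranged more widely, from 3.22 to 119 TPM.

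Duct genes were among them. FXYD2, a sodium pump subunit of ducts, ranged from 119 to 4203 scaled TPM in the secretory-rich libraries and was 3.82, 8.85 and 9.30 in Parotid baboon 2, Parotid baboon 5 and Submandibular baboon 2. PIGR, the receptor that carries antibody across epithelium into saliva, was 5.80 to 96.7, against 0.607, 1.09 and 1.35. KRT5, a basal cell keratin, was 13.6 to 74.6, against 2.10, 1.19 and 4.64. None of these 3 genes overlapped between the sets.

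Of 18 gland epithelium transcription factors that passed the filter, 16 were lower in all 3 secretory-poor libraries, beside 6.33% of all genes, with a median difference of -3.18. SOX10, a regulator of acinar, myoepithelial and Schwann cells, was 12.6 to 68.7 scaled TPM in the secretory-rich libraries, against 0.555, 0.523 and 2.15. PITX1, a homeodomain factor of oral tissue, was 25.1 to 76.0, against 1.16, 1.61 and 9.34 in Parotid baboon 2, Parotid baboon 5 and Submandibular baboon 2. As deposited, PITX1 in Submandibular baboon 2 was 25.4 TPM and the highest liver library 6.06 TPM.

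BHLHA15, a regulator of secretory cells that plasma cells also use, was a factor of this list that overlapped. It was 20.8 to 194 scaled TPM in the secretory-rich libraries, 0.558 in Parotid baboon 2 and 1.48 in Submandibular baboon 2, but 21.8 in Parotid baboon 5. That library also held high plasma cell genes, given below, and their part in this value was not tested.

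Contractile genes gave no common pattern. Of 12 myoepithelial and smooth muscle genes, 2 were lower in all 3 libraries, beside 6.33% of all genes, and none higher in all 3. KRT14, a keratin of basal and myoepithelial cells, was 9.87 to 175 scaled TPM in the secretory-rich libraries and 1.27, 1.17 and 2.92 in the secretory-poor ones. ACTA2, the actin of smooth muscle and myoepithelium, was 30.8 to 154, against 96.6, 30.0 and 122. Parotid baboon 5 was the low library of the list, with a median difference of -1.20 that turned to 0.51 on the deposited values.

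The genes in place of the secretory transcripts differed between the 3 libraries. At least 2 log2 units (4-fold) above the highest secretory-rich library lay 65 genes (0.546%) in Parotid baboon 2, 345 genes (2.9%) in Parotid baboon 5 and 105 genes (0.881%) in Submandibular baboon 2. Parotid baboon 2 and Submandibular baboon 2, of the same animal, shared 17 genes, which were 26.2% of the first list and 16.2% of the second. Parotid baboon 2 and Parotid baboon 5 shared 11 genes, 16.9% and 3.19% of their lists, and Parotid baboon 5 and Submandibular baboon 2 shared 4, 1.16% and 3.81% of theirs. All 3 lists are set against the same 7 libraries. Without Submandibular baboon 5 as a reference the count was 399 in Parotid baboon 2 and 367 in Submandibular baboon 2.

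A single gene, LYVE1, was on all 3 of these lists. LYVE1 is a hyaluronan receptor of lymphatic endothelium and of some tissue macrophages. It ranged from 1.48 to 4.63 scaled TPM in the secretory-rich libraries and was 123 in Parotid baboon 2, 46.4 in Parotid baboon 5 and 25.6 in Submandibular baboon 2.

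CCL21, a chemokine of lymphatic vessels and lymph node stroma, had the next widest gap among genes higher in all 3. It ranged from 4.02 to 39.7 scaled TPM in the secretory-rich libraries, with Submandibular baboon 5 the highest, and was 192, 990 and 132 in Parotid baboon 2, Parotid baboon 5 and Submandibular baboon 2. IGFBP3, a binding protein for insulin-like growth factors, was 2.88 to 21.3, against 60.6, 159 and 49.3. CTSH, a lysosomal protease, was 4.72 to 15.9, against 40.1, 82.4 and 43.8. The other genes of this rank were C9H12orf75, EMP3, MSN, TPM3, CAPZB and GNAI2, of which MSN, TPM3 and CAPZB bind actin.

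TMSB4X, an abundant actin-binding peptide gene, was the highest gene of Parotid baboon 2 and of Submandibular baboon 2. It was 4051 to 12050 scaled TPM in the secretory-rich libraries and 18230, 23650 and 19640 in Parotid baboon 2, Parotid baboon 5 and Submandibular baboon 2.

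Other large gene groups changed place with the scaling. Cytosolic ribosomal protein genes took 1.63% to 4.34% of deposited TPM in the secretory-rich libraries and 9.30%, 11.0% and 10.8% in Parotid baboon 2, Parotid baboon 5 and Submandibular baboon 2. After scaling they summed to 24140 to 44030 scaled TPM and to 33410, 43180 and 39550, so the sets overlapped. The 13 mitochondrially encoded genes took 1.60% to 14.8% of deposited TPM, against 11.1%, 3.68% and 7.66%. After scaling they summed to 37770 to 138600, against 39820, 14480 and 28140, so Parotid baboon 5 and Submandibular baboon 2 lay below every secretory-rich library.

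Myeloid genes were the list with the most members higher in all 3 libraries, 11 of 19, beside 3.74% of all genes. Their median difference was 2.48 in Parotid baboon 2, 2.32 in Parotid baboon 5 and 1.60 in Submandibular baboon 2. C1QA, a complement chain made by tissue macrophages, was 5.46 to 29.8 scaled TPM in the secretory-rich libraries, against 169, 169 and 41.4. CD163, a macrophage scavenger receptor, was 0.135 to 0.949, against 8.64, 2.52 and 1.18. The filter counts the secretory-poor libraries in its mean, and CD163 passed it through them alone. Without the filter, 20, 19 and 13 of the 22 myeloid genes in the table lay above every secretory-rich library, in the same order. The shares of all genes with the filter were 26.9%, 29.4% and 30.0%.

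**Figure D3:**
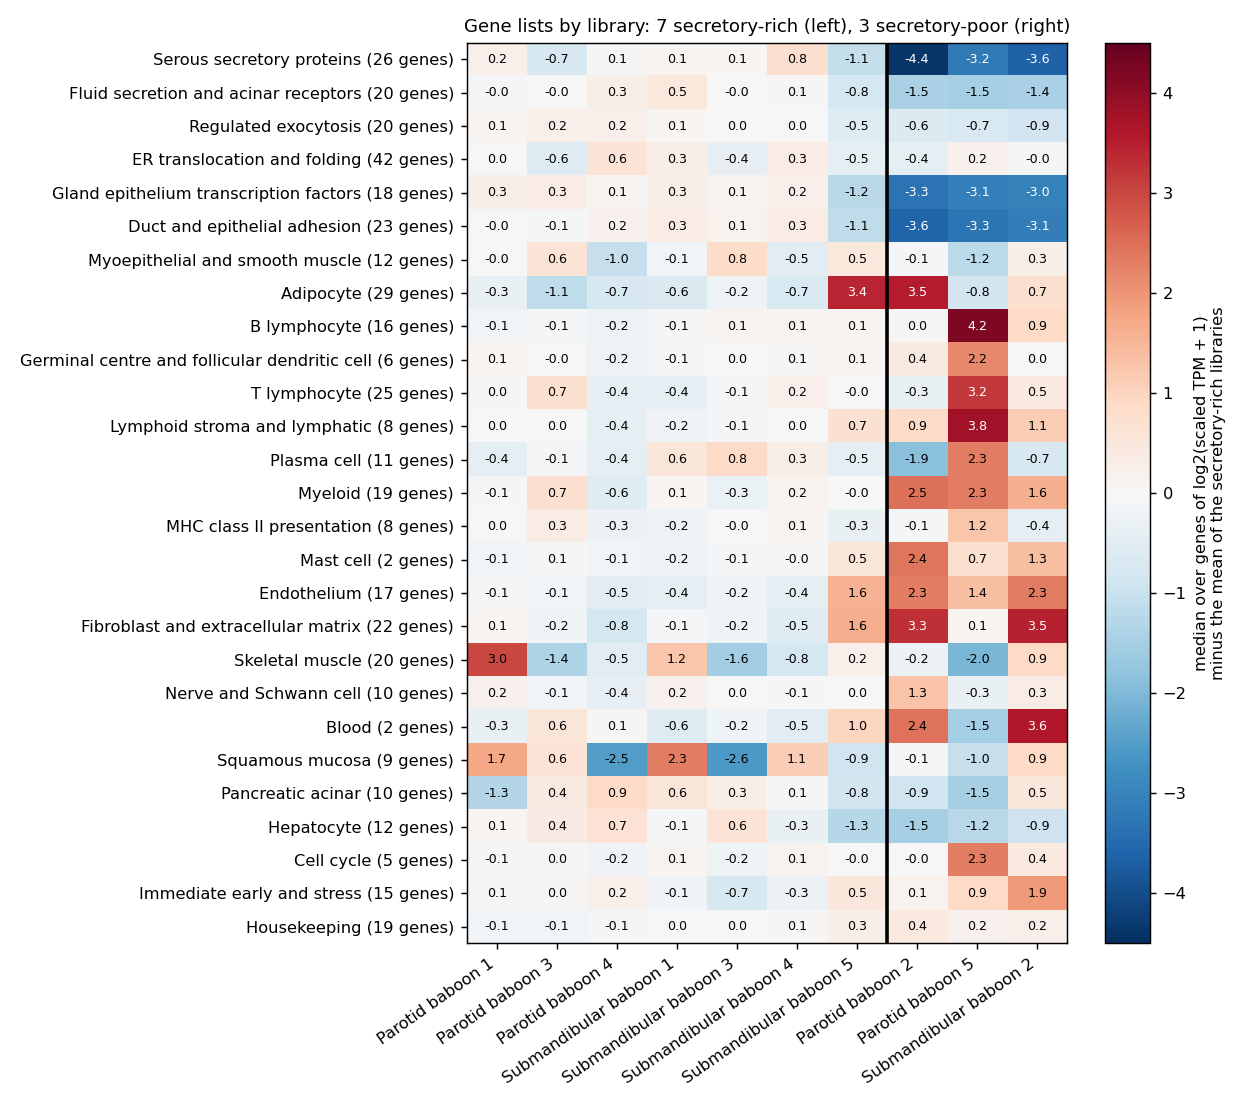
Median over the genes of each list of log2(scaled TPM + 1) minus the mean of the 7 secretory-rich libraries (colour), for each list (rows) in 10 libraries (columns), with the secretory-poor libraries right of the line. Serous, duct and transcription factor lists are below 0 in all 3 secretory-poor columns, while the fibroblast list is 3.30 and 3.48 in the libraries of baboon 2 and the B lymphocyte list 4.21 in Parotid baboon 5.

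Parotid baboon 2 held fat and connective tissue transcripts. The summed level of 29 adipocyte genes was 12200 scaled TPM there, against 324 to 647 in 6 of the secretory-rich libraries and 11220 in Submandibular baboon 5. With all 7 secretory-rich libraries, 10 of 29 adipocyte genes lay above the highest of them, beside 26.9% of all genes. Against the 6 other than Submandibular baboon 5, all 29 did, beside 32.4% of all genes. The median difference of the list was 3.52.

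LEP, the fat hormone leptin, was the 1 adipocyte gene of Parotid baboon 2 at least 2 log2 units above every secretory-rich library. It was 0.217 to 58.9 scaled TPM in the secretory-rich libraries, with Submandibular baboon 5 the highest and 11.6 the next, and 951 in Parotid baboon 2. It was 0.251 in Parotid baboon 5 and 40.6 in Submandibular baboon 2. ADIPOQ, adiponectin, was 0.0398 to 4.47 in 6 secretory-rich libraries and 322 in Submandibular baboon 5, against 212, 4.70 and 26.7 in Parotid baboon 2, Parotid baboon 5 and Submandibular baboon 2. FABP4, the fatty acid carrier of fat cells, was 29.2 to 168 in those 6 libraries, 4636 in Submandibular baboon 5, and 5901, 142 and 893 in the secretory-poor libraries.

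Fat cell genes did not all follow the same order in these libraries. FASN, fatty acid synthase, was 206 scaled TPM in Submandibular baboon 5 and 29.4 in Parotid baboon 2, with 1.10 to 4.56 in the other secretory-rich libraries. CIDEA, a lipid droplet protein, was 489 in Submandibular baboon 5 and 188 in Parotid baboon 2. These genes were chosen after their values were seen. Parotid baboon 2 held more LEP, and Submandibular baboon 5 more FASN and CIDEA.

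Of 22 fibroblast and extracellular matrix genes, 20 lay above every secretory-rich library in Parotid baboon 2, beside 26.9% of all genes, and the median difference was 3.30. DPT, a matrix protein of loose connective tissue, was 6.90 to 42.7 scaled TPM in the secretory-rich libraries and 348 in Parotid baboon 2, with 30.5 and 186 in Parotid baboon 5 and Submandibular baboon 2. MFAP4, a microfibril-associated protein, was 4.03 to 30.1 and then 273, 15.7 and 153. CRYAB, a small heat shock protein abundant in muscle, was 184 to 367 and then 2557, 7.23 and 218.

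RETN, resistin, was 1.44 to 6.79 scaled TPM in the secretory-rich libraries and 82.7 in Parotid baboon 2. It was 25.4 in Parotid baboon 5 and 26.8 in Submandibular baboon 2. CPA3, a protease of mast cells, was 0.0755 to 0.431 in the secretory-rich libraries and 13.7, 1.06 and 0.785 in Parotid baboon 2, Parotid baboon 5 and Submandibular baboon 2. CPA3 passed the filter only through its value in Parotid baboon 2, and 2 of 6 mast cell genes in the table passed. Without the filter, 4 of the 6 lay above every secretory-rich library in Parotid baboon 2, beside 26.9% of all genes with it. Of 10 nerve and Schwann cell genes that passed the filter, 6 lay above every secretory-rich library in Parotid baboon 2, beside 26.9% of all genes. Below every secretory-rich library lay 2, beside 23.7% of all genes. Without the filter, 9 of the 19 nerve and Schwann cell genes in the table lay above. The other genes named by rank there were ANGPTL5, CCL13 and MFAP5.

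Plasma cell genes were low in Parotid baboon 2. Of 11, 7 lay below every secretory-rich library, beside 23.7% of all genes, and the median difference was -1.89. JCHAIN, which joins the units of secreted antibody, was 142 to 1765 scaled TPM in the secretory-rich libraries and 23.3 there. It was 822 in Parotid baboon 5 and 211 in Submandibular baboon 2, both inside the secretory-rich range.

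Submandibular baboon 2 held connective tissue, vessel and blood transcripts with fewer fat cell transcripts. Of 22 fibroblast and matrix genes, 20 lay above every secretory-rich library, beside 30.0% of all genes, and the median difference was 3.48. COL1A1, the main collagen of connective tissue, was 4.36 to 40.2 scaled TPM in the secretory-rich libraries and 166 there, with 127 in Parotid baboon 2 and 9.75 in Parotid baboon 5. DCN, a collagen-binding proteoglycan, was 46.6 to 467 and then 1343, 1437 and 130 in the same order. Its 29 adipocyte genes summed to 1713, and 24 of them were above the 6 secretory-rich libraries other than Submandibular baboon 5, beside 34.6% of all genes.

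Endothelial genes were high in both libraries of baboon 2. Above every secretory-rich library lay 15 of 17 in Parotid baboon 2, beside 26.9% of all genes, and 13 of 17 in Submandibular baboon 2, beside 30.0%, with median differences of 2.30 and 2.33. PECAM1, an adhesion molecule of endothelium, was 3.34 to 25.1 scaled TPM in the secretory-rich libraries, against 67.3, 32.8 and 53.7 in Parotid baboon 2, Parotid baboon 5 and Submandibular baboon 2. ACKR1, a chemokine-binding protein of venules and red cells, was 0.385 to 20.5, against 33.8, 6.77 and 43.9.

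HBB, beta-globin of red cells, was 46.4 to 276 scaled TPM in the secretory-rich libraries. It was 1086 in Parotid baboon 2, 12.4 in Parotid baboon 5 and 2201 in Submandibular baboon 2. ALAS2, the haem enzyme of red cell precursors, was 0.1004 to 0.641, against 2.10, 0.0242 and 6.82 in the same order. Parotid baboon 5 lay below every secretory-rich library for both genes. The filter counts the libraries of baboon 2 in its mean, and ALAS2 passed it through them alone. Without the filter, 3 of 7 blood genes in the table lay above every secretory-rich library in Parotid baboon 2. In Submandibular baboon 2 5 of 7 did, and in Parotid baboon 5 0 of 7. The shares of all genes with the filter were 26.9%, 30.0% and 29.4% in that order.

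Immediate early and stress genes were high in Submandibular baboon 2, where 11 of 15 lay above every secretory-rich library, beside 30.0% of all genes, with a median difference of 1.91. In Parotid baboon 5, 9 of 15 lay above, beside 29.4% of all genes, with a median of 0.89, and in Parotid baboon 2 1 of 15, beside 26.9%, with a median of 0.15. JUNB, an early response transcription factor, was 4.80 to 20.6 scaled TPM in the secretory-rich libraries and 84.8 there, with 11.0 and 24.2 in Parotid baboon 2 and Parotid baboon 5. EGR1, another, was 0.671 to 6.68 and then 28.4, 2.31 and 6.13 in the same order.

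TNFRSF12A, the receptor of the cytokine TWEAK, had the widest gap in Submandibular baboon 2. It was 8.93 to 14.9 scaled TPM in the secretory-rich libraries and 517 there, with 6.81 and 11.9 in Parotid baboon 2 and Parotid baboon 5. CCL2, a chemokine that draws monocytes, was 0.997 to 5.86 and then 87.8, 13.8 and 31.3 in the same order. HMGA1, a chromatin protein, was 25.0 to 40.5 and then 356, 43.9 and 132. The other genes named by rank were PNP, PTN, PI16, NBL1, FBLN1 and EMP3.

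Parotid baboon 5 held lymphocyte and lymphoid stroma transcripts. The filter on low values counts this library in its mean, so genes high here could pass through it alone. Without that filter, 21 of the 21 B lymphocyte genes in the table and 29 of 31 T lymphocyte genes lay above every secretory-rich library, beside 26.5% of all 21287 genes. With it, 16 of 16 and 24 of 25 did, beside 29.4% of all genes, with median differences of 4.21 and 3.19. The lists summed to 656 and 699 scaled TPM there, against 8.59 to 35.5 and 18.0 to 98.1 in the secretory-rich libraries.

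CD79A, a chain of the B cell receptor, was 0.541 to 9.19 scaled TPM in the secretory-rich libraries and 133 in Parotid baboon 5. It was 0.606 in Parotid baboon 2 and 4.47 in Submandibular baboon 2, both inside the secretory-rich range. MS4A1, the B cell surface protein CD20, was 0 to 0.215 in the secretory-rich libraries, 23.0 in Parotid baboon 5, 0 in Parotid baboon 2 and 2.34 in Submandibular baboon 2. CD3E, a chain of the T cell receptor complex, was 2.23 to 14.0, against 110 in Parotid baboon 5, 2.52 in Parotid baboon 2 and 11.5 in Submandibular baboon 2.

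The lists were also partly high in the other secretory-poor libraries, at lower levels. In Submandibular baboon 2, 11 of 16 B and 10 of 25 T lymphocyte genes lay above every secretory-rich library, beside 30.0% of all genes, and none did so by 2 log2 units. In Parotid baboon 2, 5 of 16 and 1 of 25 did, beside 26.9%. The B lymphocyte sums were 67.9 and 53.4 scaled TPM in these libraries, against 656 in Parotid baboon 5, and their T lymphocyte sums, 60.5 and 34.5, lay inside the secretory-rich range.

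Genes of lymphoid stroma and follicles stood with them in part. In Parotid baboon 5, 7 of 8 lymphoid stroma and lymphatic genes lay above every secretory-rich library, beside 29.4% of all genes, and 1 below. Of 6 germinal centre and follicular dendritic cell genes, 4 lay above, and without the filter 9 of 12 did, beside 26.5%. The 6 genes summed to 349 scaled TPM, inside the secretory-rich range of 49.4 to 631. CXCL13, the chemokine that draws B cells to follicles, was 0 to 1.07 scaled TPM in the secretory-rich libraries and 122 in Parotid baboon 5, with 0.213 in Parotid baboon 2 and 0 in Submandibular baboon 2. CCL19, a chemokine of T cell zones, was 6.21 to 91.4 and then 478, 9.36 and 15.1 in the same order. CR2, a complement receptor of B cells and follicular dendritic cells, was 0.0163 to 0.184 and then 19.2, 0.0694 and 0.166. CCR7, which guides lymphocytes into lymph nodes, was 19.5 there, against at most 0.496 in the secretory-rich libraries.

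MARCO, a scavenger receptor of macrophages, had the widest gap of the genes named by rank. It was 0.0232 to 0.709 scaled TPM in the secretory-rich libraries, 138 in Parotid baboon 5, 0.0869 in Parotid baboon 2 and 0.0122 in Submandibular baboon 2. CLEC10A, a lectin of dendritic cells and macrophages, was 64.9 in Parotid baboon 5 and at most 1.23 in the secretory-rich libraries. The remaining genes named by rank were BTDA, BTDB, PLAC8, PLA2G2D, RBP5 and CCL21.

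Antibody transcripts were prominent in Parotid baboon 5. Loci that RefSeq classes as antigen receptor segments, 13 constant and 199 variable, took 19.6% of its TPM. They took 0.0315% to 0.712% in the secretory-rich libraries, 0.0393% in Parotid baboon 2 and 0.189% in Submandibular baboon 2. After scaling they summed to 77320 scaled TPM, against 744 to 11420 in the secretory-rich libraries and 141 and 693 in the other secretory-poor libraries. The highest gene of the library was LOC101024463, a constant segment, at 26580 scaled TPM against 149 to 890 in the secretory-rich libraries. Reads of such segments can be divided between similar copies.

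Of 11 plasma cell genes that passed the filter, 9 lay above every secretory-rich library in Parotid baboon 5, beside 29.4% of all genes, and without the filter 12 of 14 did, beside 26.5%. The 11 genes summed to 1364 scaled TPM in Parotid baboon 5, inside the secretory-rich range of 354 to 2042. MZB1, a chaperone of antibody-secreting cells, was 4.37 to 49.1 scaled TPM in the secretory-rich libraries and 166 there, with 0.646 in Parotid baboon 2 and 4.79 in Submandibular baboon 2. JCHAIN did not stand above, as given earlier. Without the filter, 11 of the 11 cell cycle genes in the table lay above the secretory-rich libraries there, among them RRM2, a subunit of ribonucleotide reductase, at 15.4 against 1.05 to 2.35. With the filter, 5 cell cycle genes were left.

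Fat cell genes were not high in Parotid baboon 5. Its 29 adipocyte genes summed to 332 scaled TPM, inside the secretory-rich range, with 9 below every secretory-rich library, beside 21.3% of all genes. Against the 6 secretory-rich libraries other than Submandibular baboon 5, 5 of 29 lay above, beside 34.7% of all genes. Of 22 fibroblast and matrix genes, 2 lay above every secretory-rich library, beside 29.4% of all genes, and the median difference was 0.08. Without Submandibular baboon 5 these became 10 of 22, beside 34.7%, and 0.37. Of 17 endothelial genes, 7 lay above, with a median of 1.37, and without Submandibular baboon 5 14 did, with a median of 1.57.

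**Figure D4:**
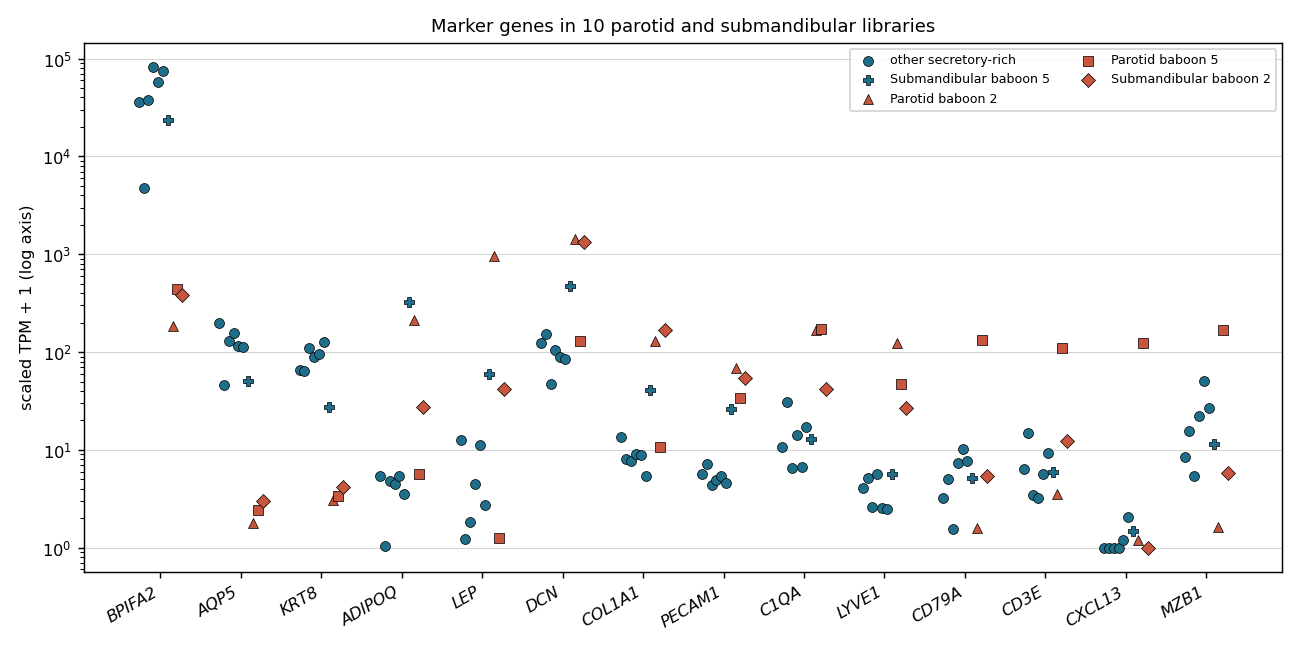
Scaled TPM + 1 (log axis) of 14 marker genes in the 10 parotid and submandibular libraries, 1 point a library, coloured by set and with a symbol of its own for each secretory-poor library. LEP is highest in Parotid baboon 2 at 951, COL1A1 in Submandibular baboon 2 at 166, and CD79A, CD3E and CXCL13 in Parotid baboon 5 at 133, 110 and 122.

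Submandibular baboon 5 was secretory-rich and also held fat cell transcripts. It lay above the other 6 secretory-rich libraries for all 29 adipocyte genes, beside 24.8% of all genes, for 21 of 22 fibroblast and matrix genes and for 16 of 17 endothelial genes. It lay below those 6 for 13 of 26 secretory genes and 15 of 18 gland transcription factors, beside 21.2% of all genes. Its 6 dominant loci, at 49.2% of TPM, and its KRT8, at 26.6 scaled TPM, were the lowest of the secretory-rich set. Its secretory genes summed to 173700 scaled TPM, also the lowest of that set. They summed to 2872, 6967 and 8460 in Parotid baboon 2, Parotid baboon 5 and Submandibular baboon 2. In this library, high fat cell transcripts thus stood beside a secretory sum above the secretory-poor libraries and below the other secretory-rich ones.

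Correlations of log2 values over the tested genes described the same order, with genes that are not independent replicates. Pairs of secretory-rich libraries had r of 0.84 to 0.964, and pairs of a secretory-rich with a secretory-poor library 0.688 to 0.901. Parotid baboon 2 and Submandibular baboon 2, from different glands of the same animal, had r of 0.923. Parotid baboon 5 had r of 0.735 with the first and 0.77 with the second. Submandibular baboon 5 had r of 0.901 with Parotid baboon 2 and 0.84 to 0.878 with the other secretory-rich libraries.

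Markers of neighbouring or distant tissues mostly lay within or below the secretory-rich range in the secretory-poor libraries. No skeletal muscle gene of 20 and no squamous mucosa gene of 9 lay above every secretory-rich library in any of the 3. Of all genes, 26.9% to 30.0% did. The highest secretory-rich sums were 2259 scaled TPM for muscle, in Parotid baboon 1, and 903 for mucosa, in Submandibular baboon 1. Against the secretory-rich mean, the muscle and mucosa medians were 0.91 and 0.88 in Submandibular baboon 2. They were -0.25 and -0.10 in Parotid baboon 2 and -2.05 and -1.04 in Parotid baboon 5. ACTA1, skeletal muscle actin, was 1.84 to 374 scaled TPM in the secretory-rich libraries, against 30.7, 0.745 and 88.6 in Parotid baboon 2, Parotid baboon 5 and Submandibular baboon 2. ALB, the liver plasma protein, was 56.8 to 313, against 56.0, 60.0 and 69.5. The median of 12 hepatocyte genes was -1.27 over the 3 libraries and 0.65 on the deposited values. Pancreatic CPA1, a digestive protease, was 82.1 to 371, against 114, 62.2 and 266. Of 10 pancreatic acinar genes, 3 lay above every secretory-rich library in Submandibular baboon 2, as did 30.0% of all genes, and none did so in the parotid libraries.

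Other tissues of the same animals were read as deposited TPM. In baboon 5, the sublingual library had the highest B lymphocyte sum of the 5 sublingual libraries, 114 TPM against 15.2 to 39.2 in the others, where Parotid baboon 5 held 1666 TPM. The sublingual library of baboon 5 also had the highest lymphoid stroma and lymphatic sum, 340 TPM with 76.7 the next. Its plasma cell sum, 9374 TPM with 1967 the next, was the highest as well. The T lymphocyte and germinal centre lists were highest in other animals there. The highest sublingual T lymphocyte sum was 272 TPM, in baboon 1, and the highest germinal centre sum 2710 TPM, in baboon 3. In baboon 2, the adipocyte sum of the sublingual library was 1463 TPM, against 585 to 973 in the other sublingual libraries and 33960 TPM in Parotid baboon 2. Liver libraries held adipocyte sums of 7636 to 19180 TPM, the highest in baboon 2. Submandibular baboon 2 held 4665 TPM and Submandibular baboon 5 13800 TPM, so the sum of this list was also high in liver. T lymphocyte sums of the pancreas and liver libraries reached 22.3 and 65.6 TPM, against 1775 TPM in Parotid baboon 5. With 1 or 2 animals giving a secretory-poor section, no test of animals was made.

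Housekeeping genes gave the remaining difference of scale. Of 19, 9 lay above every secretory-rich library in Parotid baboon 2, 6 in Parotid baboon 5 and 9 in Submandibular baboon 2, beside 26.9%, 29.4% and 30.0% of all genes, and the median difference over the 3 was 0.37. Submandibular baboon 2 lay below every secretory-rich library for 26.9% of all genes. The order of the lists was alike under median-of-ratios, TMM and housekeeping scaling and after leaving out the highest genes: the secretory, duct and transcription factor lists had medians of -3.18 or lower over the 3 libraries under each.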

How the data were processed

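Bulk RNA sequencing libraries of 5 tissues from each of 5 olive baboons were deposited as 1 table of TPM for 21287 genes and 25 libraries. Per the labels' protocols, RNA was taken from 3 sections of 30 µm, treated with DNase and sequenced as 150-base read pairs. The deposited TPM values were made by the authors with kallisto, per the name of the deposited table. The submitters' processing notes list FastQC, MultiQC, cutadapt, HISAT2, SAMtools, featureCounts, DESeq2 and kallisto, without versions. The kallisto version, index, genome build and annotation are not given in the sources used here, so no coordinates are printed. Libraries summed to between 999999.5 and 1000000.6 TPM. TPM keeps no depth, so no counting error could be given, and precision rests on the spread over libraries alone.

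Libraries were grouped by tissue from the labels, and the 10 parotid and submandibular libraries were split at 2000 TPM of BPIFA2. The split uses a measured value and every gene of these libraries, so no test was made and no p-value is given. Values were divided by median-of-ratios factors, which a few dominant genes hardly move, and log2(scaled TPM + 1) was used. Genes with a mean of at least 1 scaled TPM over the 10 libraries were kept (11912). A gene was counted as higher or lower where the sets did not overlap and mean log2 values differed by at least 1. The scaling was run on simulated libraries with dominant genes, in which equal numbers of other genes were raised and lowered. The real sets differed in more genes and unequally, so that run cannot show how the scaling acts on them. RefSeq gene names of the Panubis1.0 assembly matched all 21287 symbols and gave gene order and segment classes.

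The text names members of 27 gene lists, of whose 553 symbols 501 were in the table and 426 were used. It also names, for each secretory-poor library, the 10 genes furthest above the highest secretory-rich library at 50 scaled TPM or more, and the 10 widest gaps in each direction, with unnamed loci left out. Some genes these rules name are not reported here. Named list members and loci beyond that were chosen after their values were seen. The members and lists were chosen with earlier results of these data known. The same number marks the same animal in every tissue, and no sequencing batch is labelled. Alternatives were 4 other scalings, another pseudocount, 2 filters, other limits on BPIFA2, single glands, each library left out and a fit with gland and animal as terms. Python 3.11.15, pandas 2.3.3, numpy 2.4.6 and matplotlib 3.10.9 were used.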

Additional observations from a re-analysis of the deposited data

Results flagged for a closer look

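The summed scaled TPM of each of the 27 lists was checked for a library far from the others among the 7 secretory-rich libraries, by Dixon's ratio with a limit of 0.568. Chance passes this limit in about 1 in 20 groups. Submandibular baboon 5 passed it for 5 lists. It was the highest for adipocyte genes, at 11220 against 646.8 in the next library, and for nerve and Schwann cell genes, at 514.0 against 101.3. In the nerve list S100B, which fat cells also express, gave 484 of that sum. It was also the highest for the 2 mast cell genes, at 2.497 against 0.8538. It was the lowest for regulated exocytosis genes, at 300.7 against 579.8, and for gland epithelium transcription factors, at 134.8 against 400.1. The parts of fat tissue and of gland tissue in these values were not tested separately.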

How the results depend on the processing

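No alternative has a test. Of the alternative values for the main results, 208 stayed within the spread or within 1.5 times the count, and 49 moved.

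Deposited values without scaling moved most. The median of all genes was then 1.70 against 0.09, and with housekeeping scaling it was -0.24. Counts of genes higher and lower in all 3 libraries became 7568 and 235 as deposited, 205 and 1151 with housekeeping scaling, and 217 and 463 with a mean of at least 5 scaled TPM. They were 1073 and 1137 in parotid libraries alone and 1635 and 1571 in submandibular libraries alone. Counts of genes 2 log2 units above, in Parotid baboon 2, Parotid baboon 5 and Submandibular baboon 2, became 704, 1158 and 1119 as deposited and 35, 180 and 57 at the mean of 5. With a pseudocount of 0.1 those of Parotid baboon 2 and Submandibular baboon 2 were 99 and 165, and with housekeeping scaling 39 and 57. Against secretory-rich parotid libraries only, Parotid baboon 2 had 465. A limit of 1000 TPM on BPIFA2 leaves Parotid baboon 2 as the only secretory-poor library, with 13 genes 2 log2 units above and 756 higher. A limit of 5000 TPM gives the same sets.

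Leaving out each library in turn gave 435 to 1080 genes higher and 734 to 1089 lower. The counts 2 log2 units above were 65 to 399 in Parotid baboon 2, 345 to 420 in Parotid baboon 5 and 105 to 367 in Submandibular baboon 2.

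List medians as deposited were -2.09 for secretory, -1.81 for duct and -2.26 for transcription factor genes. Those of fibroblast genes were 5.12 in Parotid baboon 2 and 5.20 in Submandibular baboon 2, and those of B and T lymphocyte genes in Parotid baboon 5 were 5.54 and 4.60. With a pseudocount of 0.1, duct was -3.92, transcription factors -4.57, B lymphocytes 5.81 and T lymphocytes 4.21. Without a filter, secretory was -3.27 and B lymphocytes 3.33, and at the mean of 5 transcription factors were -3.86, B lymphocytes 4.65 and T lymphocytes 4.17.

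The replicate block, with gland and animal as terms, rests on baboon 5 alone, the 1 animal with a library of each set. It gave 277 genes higher and 438 lower, and medians of -1.72 for secretory, -1.93 for duct and -1.57 for transcription factor genes. Its sign turned for blood (-2.61), endothelial (-0.39), fibroblast (-1.52) and mast cell (-0.14) lists over the 3 libraries. Signs also turned as deposited for hepatocyte genes (0.53 in Parotid baboon 2, 0.58 in Parotid baboon 5, 0.65 over the 3). In Parotid baboon 5 they turned for myoepithelial (0.51), pancreatic acinar (0.36) and squamous (0.43) genes. At the limit of 1000 TPM, medians over the secretory-poor set turned for B lymphocyte (-0.49), germinal centre (-0.11) and T lymphocyte (-0.77) genes. At that limit Parotid baboon 5 and Submandibular baboon 2 count as secretory-rich. Without a filter, mast cell genes in Submandibular baboon 2 turned to -0.10, and at the mean of 5 no mast cell gene is left. Beyond the sets the alternatives leave, causes were not tested. Depth is unknown, so levels near 0 carry no limit.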
